A study of Mus musculus with 12 samples.

Results

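Adventitial fibroblast marker genes were followed in cultured vascular smooth muscle cells (VSMC) of the mouse aorta. The 7 genes, chosen by symbol through their gene identifiers, were Ly6a, Ly6c1, Cd34, Pdgfra, Dpt, Clec3b and Pi16, out of 26301 identifiers in the RNA-seq table. All 7 were listed in the RNA-seq table and in both passage 3 tables, and 6 in both passage 10 tables, where Clec3b was unlisted. The study silenced Thoc5 with a short hairpin RNA and sequenced RNA that came down with antibodies to Thoc2 or Thoc5 (RNA immunoprecipitation sequencing, RIP-seq). Both proteins belong to the THO complex, which links transcription to nuclear export of mRNA. Of the 12 samples, 10 were used, and the other 2, of chromatin immunoprecipitation, were not used here.

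All cells came from C57BL/6 mice aged 6 weeks, whose aortas were stripped of surrounding fat and digested with collagenase type I. The labels call the cells primary vascular smooth muscle cells and record no sorting step. The RNA-seq groups were shThoc5 (2 libraries, 1 hairpin) and a non-targeting hairpin, shNT (2 libraries), at passages 4 to 8 and 4 days after infection. With 1 hairpin, loss of Thoc5 and action on unintended targets cannot be told apart. RIP-seq had a Thoc2 immunoprecipitate, a Thoc5 immunoprecipitate and an input at passage 10, and the same at passage 3, with 1 library of each. The labels do not state whether the libraries within a group stem from separate mice or cultures, and p-values therefore measure only how far these libraries spread, and that spread may be technical.

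As background, the adventitia is the outer coat of an artery, and its fibroblasts and progenitor cells carry these markers. Ly6a (Sca-1) and Ly6c1 are small surface proteins held by a lipid anchor, Cd34 is a sialomucin of progenitor and endothelial cells, and Pdgfra is the receptor tyrosine kinase by which mesenchymal cells respond to platelet-derived growth factor. Dpt (dermatopontin) is a matrix protein that binds decorin, Clec3b (tetranectin) binds plasminogen, and Pi16 is a peptidase inhibitor family member that marks a fibroblast population shared by many tissues.

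The RNA-seq libraries held 15819207 to 21037732 counted reads and the RIP-seq libraries 5396291 to 36336141. Ribosomal RNA took 19.2% of the reads of the passage 3 Thoc2 immunoprecipitate and 7.33% of the passage 3 Thoc5 immunoprecipitate, against 0.927% to 1.76% in the other 4 RIP-seq libraries. Thoc5 itself had 7.37 and 5.75 CPM (counts scaled to the library total) in shThoc5 and 33.5 and 38.9 CPM in shNT. Its log2 fold change was −2.51 (SE 0.208), with an adjusted p of 0.499 by edgeR's quasi-likelihood test and 6.56e-15 by DESeq2. Among markers of the labelled cell type, Acta2 (smooth muscle actin) stood at 799 and 1181 CPM in shThoc5 and 1232 and 2430 CPM in shNT. Over the same 4 libraries Tagln had 383 to 1191 CPM, Smtn 152 to 235 CPM, Cnn1 20.5 to 108 CPM and Lmod1 12.2 to 71.1 CPM. Myh11, the smooth muscle myosin heavy chain, lay between 3.22 and 4.94 CPM, and Des between 1.77 and 2.82 CPM. Myocd, which drives the contractile programme, was at most 0.544 CPM.

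Promoter sequences, from RefSeq on the GRCm38.p6 build, were at hand for 5 of the 7 genes. Those of Ly6c1, Dpt and Cd34 are shown because these 3 genes were lower in the passage 10 input than in the passage 3 input, by unequal amounts. Each runs 5′ to 3′ on the gene's strand and stops before the gene's own span. Capitals mark a TATAAA or a TTCNNNGAA match, found on either strand. The windows were chr15:75048921-75049087 on the minus strand for Ly6c1, chr1:164796413-164796662 on the plus strand for Dpt and chr1:194938571-194938820 on the plus strand for Cd34.
Ly6c1: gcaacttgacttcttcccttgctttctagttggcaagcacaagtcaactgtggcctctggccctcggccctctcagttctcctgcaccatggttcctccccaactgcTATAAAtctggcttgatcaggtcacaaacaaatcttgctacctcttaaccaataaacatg
Dpt: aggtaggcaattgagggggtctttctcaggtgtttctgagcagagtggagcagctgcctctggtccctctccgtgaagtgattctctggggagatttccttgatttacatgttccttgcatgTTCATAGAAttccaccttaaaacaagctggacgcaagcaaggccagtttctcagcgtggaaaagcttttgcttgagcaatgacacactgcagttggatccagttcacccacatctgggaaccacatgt
Cd34: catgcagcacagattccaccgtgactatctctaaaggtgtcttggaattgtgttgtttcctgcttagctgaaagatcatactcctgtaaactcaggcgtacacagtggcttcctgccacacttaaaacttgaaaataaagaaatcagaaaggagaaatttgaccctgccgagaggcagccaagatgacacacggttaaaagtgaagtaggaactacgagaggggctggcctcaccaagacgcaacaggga
TATAAA lay 143 bases before the transcript start of Ly6c1 in the promoter table, a start that is inside the gene's annotated span, and 12.4% of 32851 promoter windows hold it. TTCNNNGAA, the letters bound by STAT factors, lay 128 bases before the start of Dpt, and 7.02% of windows hold it. The interferon-stimulated response element (2.98% of windows), GGGCGG (32.7%) and the CArG box (1.47%) were searched on both strands and had no match in the promoters of these 5 genes. A match is only a run of letters, and none of these data measure binding there.

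The first comparison was shThoc5 against shNT, which asks how the markers stood 4 days after Thoc5 silencing. None of the 5 members tested was called, and the levels of the 7 went different ways. Pdgfra was higher in both shThoc5 libraries than in both shNT libraries, Clec3b and Pi16 were lower in both, and the other 4 overlapped. Of all 13569 genes tested, 21.4% were higher without overlap and 12.4% were lower without overlap. Dpt and Clec3b did not pass the filter of that test, and of the 5 members that passed it 1 was higher and 1 lower without overlap. In bulk RNA, fewer cells of a type and less RNA per cell cannot be told apart.

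Ly6a, on chromosome 15, had 225 and 92.5 CPM in shThoc5 libraries 1 and 2, against 228 and 131 CPM in shNT libraries 1 and 2. The 2 libraries numbered 1 were the high ones in both groups, and the groups overlapped. The log2 fold change was −0.22 (SE 0.463, edgeR adjusted p = 1.00). Leaving out single libraries moved it between −1.01 (without shThoc5 replicate 1) and 0.28 (without shThoc5 replicate 2), so its direction turned. Ly6c1, its neighbour in the same gene family and also on chromosome 15, had 23.4 and 31.9 CPM in shThoc5, against 18.5 and 30.8 CPM in shNT. Here the libraries numbered 2 were the high ones. Its log2 fold change was 0.11 (SE 0.303, edgeR adjusted p = 1.00). Its direction also turned, with values from −0.23 (without shNT replicate 1) to 0.55 and −0.13 without shThoc5 replicate 2. Reads of Ly6c1 are uncertain because Ly6c2 is a near-identical copy, which had at most 0.0495 CPM in these libraries.

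Cd34, on chromosome 1, had 25.8 and 15.9 CPM in shThoc5, against 42.3 and 24.3 CPM in shNT. The higher shThoc5 library passed the lower shNT library, so the groups overlapped. The log2 fold change was −0.72 (SE 0.340), with an edgeR p of 0.0842 before adjustment over all genes and 1.00 after it. Whether Cd34 was called changed in a fit that treated same-numbered libraries as pairs, which the labels do not state. That fit is given with the alternatives at the end. Cd34 shares part of its span with the counted gene Gm16897, which held 63 reads in shThoc5 library 1 and 79 in shNT library 1, and whether counting used the strand is not stated.

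Pdgfra, on chromosome 5, took the most reads of the 7, with 414 and 377 CPM in shThoc5 against 348 and 304 CPM in shNT. The log2 fold change was 0.23 (SE 0.159, edgeR adjusted p = 1.00). Dpt had few reads, with 8 and 7 reads in shThoc5 and 5 and 9 reads in shNT. Clec3b had 7 and 4 reads in shThoc5 and 9 and 14 reads in shNT. These 2 did not pass the filter on low counts, which 5 of the 7 genes passed. Pi16 had 16 and 9 reads in shThoc5 and 19 and 30 reads in shNT, with a log2 fold change of −0.89 (SE 0.457, edgeR adjusted p = 1.00).

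**Figure D1:**
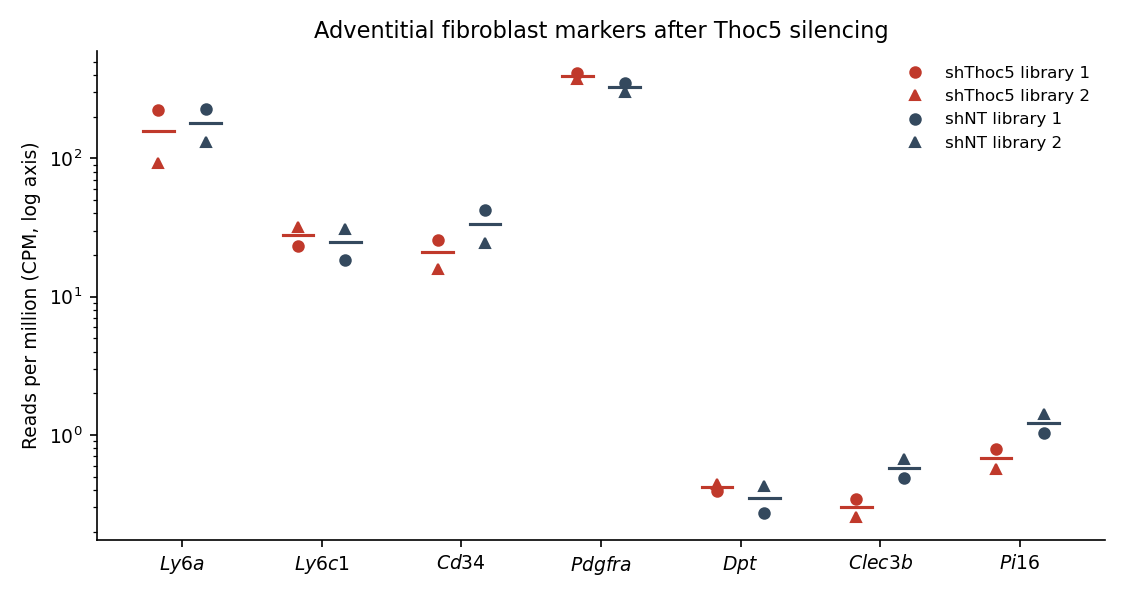
CPM of the 7 genes on a log axis in each RNA-seq library, shThoc5 left of shNT, with a bar at each group's mean (n = 2). Ly6a has 92.5 to 228 CPM and Pdgfra 304 to 414 CPM, while Pi16 reaches at most 1.43 CPM.

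The share of genes called by edgeR was 0% (0 of 13569 tested), and 651 genes, none of them a member, had an unadjusted p under 0.05. DESeq2 called 0.116% of 10387 genes as higher and 0.347% as lower (48 genes in all), and no member was among them. Calls by limma-voom numbered 0, with 646 genes at an unadjusted p under 0.05, and none of the 12371 genes in the authors' deposited table had an adjusted p under 0.05. The median log2 fold change of the 5 tested members was −0.22, beside 0.006 over all genes tested. In the authors' deposited table the log2 fold changes were −0.31 for Ly6a, 0.14 for Ly6c1, −0.69 for Cd34 and 0.23 for Pdgfra, each with an adjusted p of 1.00.

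Per length, the 4 members with a listed gene length stood in the same order in each of the 4 libraries, with Ly6a first, then Pdgfra, Ly6c1 and Cd34. Ly6a averaged 192 ± 113 RPKM (CPM divided by gene length in kilobases) in shThoc5 and 217 ± 83.3 in shNT (SD, n = 2 each). Pdgfra averaged 58.7 ± 3.87 RPKM in shThoc5 and 48.4 ± 4.61 RPKM in shNT. Ly6c1 averaged 32.8 ± 7.13 RPKM in shThoc5 and 29.2 ± 10.3 RPKM in shNT, and Cd34 averaged 7.96 ± 2.66 RPKM in shThoc5 and 12.7 ± 4.85 RPKM in shNT. The spread between libraries was widest for Ly6a.

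Other genes of the same settings were read from lists. Of 30 further adventitial and matrix fibroblast genes, 25 were tested, 10 were lower and 1 higher without overlap, and the median log2 fold change was −0.44. Over all genes tested 12.4% were lower and 21.4% higher without overlap, with a median of 0.006. The medians of the endothelial and smooth muscle markers also lay below 0. Of 8 tested endothelial markers 3 were lower and 0 higher without overlap, with a median of −0.40. Of 7 tested smooth muscle markers 1 was lower and 0 higher, with a median of −0.38, and this lower count is near the share of all genes. Egfl7 (0.35) and Esam (0.07) of the endothelial list and Des (0.04) of the smooth muscle list lay above 0. Of 4 tested macrophage markers 0 were lower and 1 higher, with a median of −0.02. Of 10 tested interferon-stimulated genes 2 were lower and 0 higher, with a median of −0.16. The adipocyte, mesothelial and epithelial, and Schwann cell lists had medians of −1.11, −0.66 and −0.32 on 4, 3 and 2 tested genes. Cdh5, the endothelial cadherin, stood at −1.29 (SE 0.193) and was called by DESeq2, and Acta2 stood at −0.94 (SE 0.387) and was not called. The part of these shifts in the fibroblast genes was not tested. Of the 25 fibroblast genes edgeR called 0 and DESeq2 called 1, Dcn (decorin, a collagen-binding proteoglycan), as lower. Dcn had 291 and 306 CPM in shThoc5 against 580 and 528 CPM in shNT, a log2 fold change of −0.94 (SE 0.154, DESeq2 adjusted p = 0.000112). The other genes furthest from 0 were Lum (lumican) at −1.27 (SE 0.391), Igfbp6 at −1.01 (SE 0.523), Mfap5 at −0.98 (SE 0.523) and Col1a2, a type I collagen chain, at −0.87 (SE 0.379). None of these 4 passed in edgeR.

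Among 16 genes of the Ly6 family 6 were tested, and none was without overlap. Ly6d stood at −0.85 (SE 0.795), Lynx1 at −0.18 (SE 0.336) and Lypd1 at −0.16 (SE 0.192) on the log2 scale. All 7 PDGF ligands and receptors were tested, 4 higher and 2 lower without overlap, with none called. Pdgfa had a log2 fold change of 0.42 (SE 0.144), Pdgfb 0.36 (SE 0.265) and Pdgfrb, the other receptor, 0.25 (SE 0.164), against −0.41 (SE 0.181) for Pdgfc and −0.24 (SE 0.155) for Pdgfd. In the Cd34 family, Podxl2 stood at 0.71 (SE 0.244) and Podxl (podocalyxin) at 0.00 (SE 0.190). Of 8 plasminogen system genes 5 were tested, with Plaur (the urokinase receptor) at −0.86 (SE 0.483) and Plau (urokinase) at 0.67 (SE 0.313), none called.

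**Figure D2:**
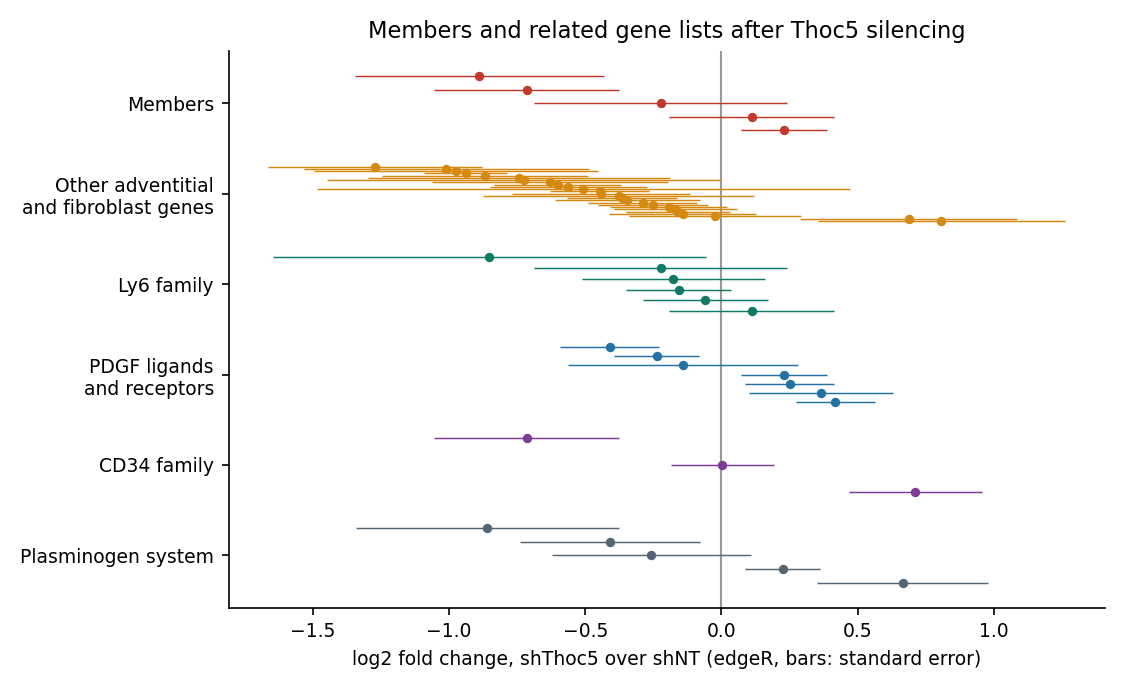
edgeR log2 fold changes of shThoc5 over shNT with standard errors, for the tested members and 5 related lists; each dot is a gene. The members spread from −0.89 to 0.23 and the other adventitial and fibroblast genes lie mostly left of 0, with a median of −0.44.

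The second comparison set the passage 10 input against the passage 3 input. These are total RNA libraries of 1 culture stage each, so there is no replicate check, and other differences between the 2 preparations cannot be told apart from passage. The 95% intervals are exact and take in counting error alone. By library totals, the 2 Ly6 genes, Dpt and Clec3b were lower at passage 10 by more than 10-fold. Cd34 was lower by about 2.15-fold, and Pdgfra and Pi16 were close to level with this scaling.

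Ly6a had 90.0 CPM at passage 10 and 1491 CPM at passage 3, 16.6-fold lower (15.8 to 17.4). At passage 3 it was the gene of rank 76 in its library, and at passage 10 of rank 2297. Ly6c1 had 5.20 CPM at passage 10 and 239 CPM at passage 3, 46.0-fold lower (37.7 to 56.6). Dpt had 1.26 CPM at passage 10 and 15.5 CPM at passage 3, 12.3-fold lower (8.19 to 19.4). Clec3b was unlisted at passage 10, which allows at most 10 reads, and had 6.47 CPM at passage 3, at least 12.3-fold lower. Cd34 had 6.72 CPM at passage 10 and 14.5 CPM at passage 3, 2.15-fold lower (1.77 to 2.63).

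Pdgfra had 67.5 CPM at passage 10 and 71.4 CPM at passage 3, a difference of 1.06-fold (0.989 to 1.13). Pi16 had 2.21 CPM at passage 10 and 2.72 CPM at passage 3, a difference of 1.24-fold (0.853 to 1.82). Both intervals include 1, with scaling by library totals. Under the TMM scaling given below, both genes stood lower. The make-up of the summed reads of the 7 genes differed too, with Ly6a at 52.1% at passage 10 and 81.0% at passage 3, and Pdgfra at 39.0% at passage 10 and 3.88% at passage 3.

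**Figure D3:**
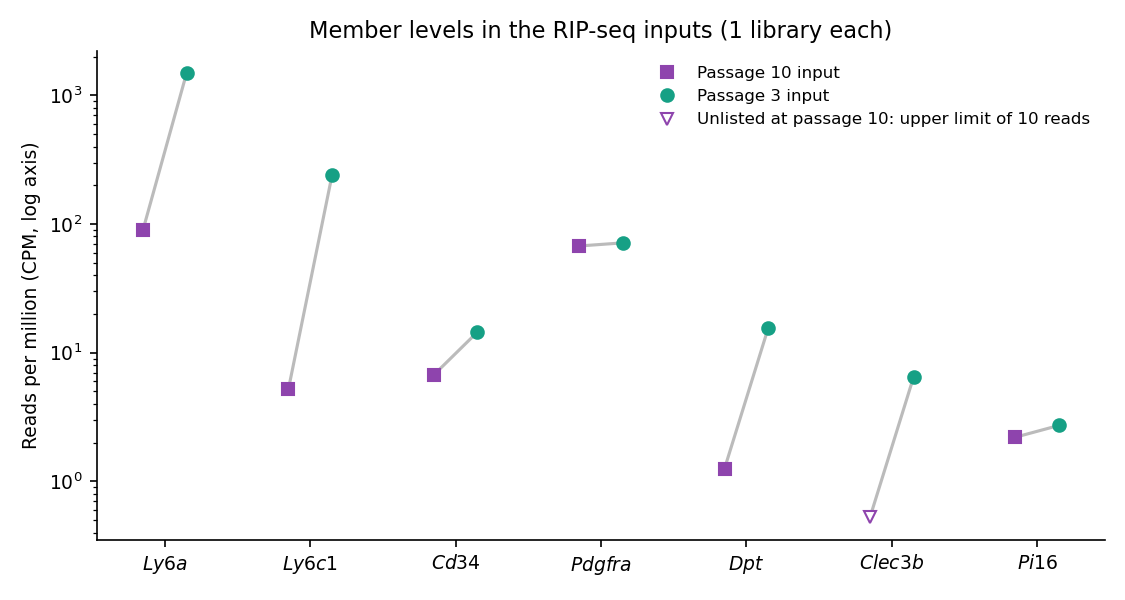
CPM of the 7 genes on a log axis in the 2 RIP-seq inputs, passage 10 left of passage 3, 1 library each; the open triangle is the limit of 10 reads for Clec3b. Ly6a stands at 90.0 CPM at passage 10 and 1491 CPM at passage 3, and Pdgfra at 67.5 and 71.4 CPM.

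Of the 7 genes 5 had a log2 ratio of −1 or lower, where 17% of 13459 genes had one. The median log2 ratio of the 7, with the unlisted Clec3b at 0 reads, was −3.19 and that of all genes was 0.43. With Clec3b at the limit of 10 reads its own ratio was −2.76, which would then be the middle value. With TMM scaling the median of all genes was −0.02, 23.4% of genes were at −1 or lower, and the count among the 7 was again 5. Pdgfra then stood at −0.55, against −0.08 by library totals, and Pi16 at −0.63, against −0.25. By library totals, 17% of all genes were at −1 or lower and 31% at 1 or higher (19.0% at 1 or higher with TMM scaling). Of the 30 other adventitial and fibroblast genes 28 were compared by library totals. Of these, 18 were at −1 or lower and 2 at 1 or higher, with a median of −1.56. The 2 higher ones were Scara5 and Smoc2, named after their values were seen. Dcn had 13.8 CPM at passage 10 and 1041 CPM at passage 3. Col1a1, the other type I collagen chain, had 4656 CPM at passage 10 and 2472 CPM at passage 3.

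Markers of other cell types were read between the same 2 libraries, where lower means a log2 ratio of −1 or lower and higher one of 1 or higher. Over all genes 17% were lower and 31% higher in this sense, by library totals. Interferon-stimulated genes were lower in 10 of 10, with a summed level of 284 CPM at passage 10 and 6661 CPM at passage 3. Macrophage markers were at −1 or lower in 9 of 10 (54.6 CPM at passage 10 and 243 CPM at passage 3) and endothelial markers in 7 of 9 (71.6 CPM at passage 10 and 258 CPM at passage 3). Adgre1, Ptprc and the C1q genes of macrophages were unlisted at passage 10. Schwann cell markers were lower in 3 of 3, mesothelial and epithelial markers lower in 2 and higher in 3 of 6, adipocyte markers lower in 1 and higher in 1 of 2, and no lymphocyte marker could be compared. Smooth muscle markers were higher in 3 and lower in 2 of 7. They summed to 6520 CPM at passage 10 and 4515 CPM at passage 3, of which Acta2 alone had 4549 CPM at passage 10 and 2091 CPM at passage 3, while Tagln (transgelin) had 1359 CPM at passage 10 and 2194 CPM at passage 3. The part of these shifts in the levels of the 7 genes was not tested. In the plasminogen list, which holds Clec3b, 5 of 6 were at −1 or lower. Pdgfrb had 676 CPM at passage 10 and 325 CPM at passage 3, and Pdgfa 97.5 CPM at passage 10 and 26.9 CPM at passage 3.

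**Figure D4:**
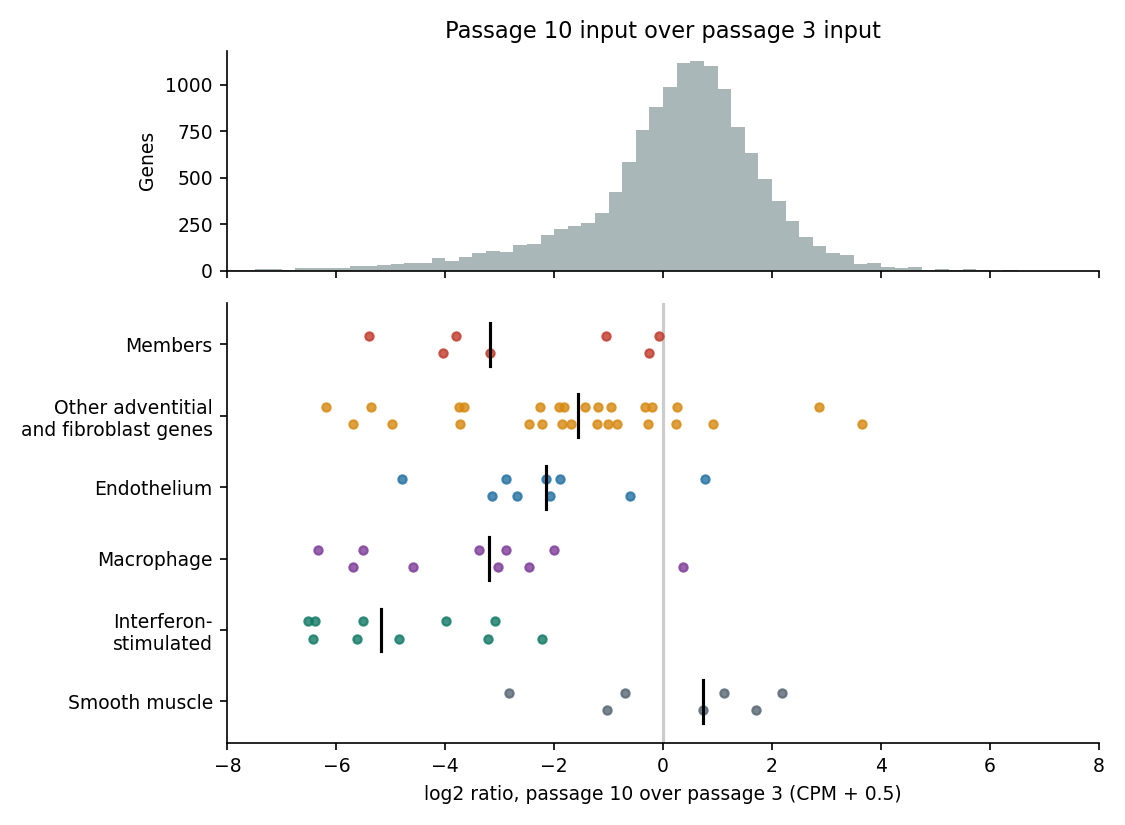
Top, all genes by log2 ratio of the passage 10 input over the passage 3 input; bottom, each gene of the members and 5 lists with the list's median as a bar. Genes unlisted in 1 library enter as 0 reads there, Clec3b included, and the medians are −3.19 for the members and −5.18 for interferon-stimulated genes.

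Across the 6 libraries without immunoprecipitation, Ly6a was highest in the passage 3 input and next in the libraries numbered 1 of shThoc5 and shNT. Of 9599 genes, those most like it by Pearson's r of log2(CPM + 1) were H2-T23, a class I-like histocompatibility gene, at 0.996, Pdia4, an endoplasmic reticulum protein folding enzyme, at 0.993, Phldb1 at 0.990, Lrig1 at 0.988 and Zfp697 at 0.986. These values are a description over 6 libraries of 2 experiments, and the passage 3 input carries much of the range. Without it, the 5 values lay between 0.942 and 0.995. The 5 genes were picked on all 6 libraries, so these values are no separate check. Of the 9599 genes, 166 had an r over 0.9. Among the members, Ly6c1 had 0.847 with the passage 3 input and 0.289 without it, Cd34 0.133 and 0.839, and Pdgfra −0.386 and 0.576.

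The third comparison set each immunoprecipitate against its input and asks which transcripts came down with Thoc2 or Thoc5. No member (of 5 detected with either antibody at passage 10, and at passage 3 of 7 detected with Thoc2 or 6 with Thoc5) was enriched, which here means a log2 ratio of 1 or more in a gene detected with 10 reads and 1 CPM or more in the immunoprecipitate. Over all detected genes, the enriched share was 12.6% with Thoc2 and 6.12% with Thoc5 at passage 10. At passage 3 it was 19.8% with Thoc2 and 24.6% with Thoc5. With so few members, counts of 0 are near these shares. None was in the authors' deposited lists of selected genes. At passage 10 these hold 2277 genes for Thoc2, beside 13467 listed genes, and 560 for Thoc5, beside 13233. At passage 3 they hold 1046 genes for Thoc2, beside 14635, and 919 for Thoc5, beside 14723. With only 6 members listed at passage 10 and 7 at passage 3, these counts of 0 are no result about the members. The 2 immunoprecipitates of a passage share their input.

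Ly6a was below its input in all 4 immunoprecipitates. With Thoc2 it had 45.4 CPM against 90.0 CPM in the input at passage 10, and 449 CPM against 1491 CPM in the input at passage 3. Its log2 ratios were −0.98 with Thoc2 and −0.73 with Thoc5 at passage 10, and −1.73 with Thoc2 and −0.91 with Thoc5 at passage 3. Among detected genes these values were at percentiles 7.11 and 8.47 at passage 10 and 5.71 and 11.1 at passage 3, for Thoc2 and Thoc5. Ly6c1 was also below its input throughout, with log2 ratios of −0.51 (Thoc2) and −0.32 (Thoc5) at passage 10. At passage 3 they were −1.89 (Thoc2) and −0.94 (Thoc5).

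Pdgfra was above its input in all 4, short of the limit of 1. With Thoc2 it had 116 CPM against 67.5 CPM in the input at passage 10, and 103 CPM against 71.4 CPM in the input at passage 3. The log2 ratios were 0.78 with Thoc2 and 0.48 with Thoc5 at passage 10, and 0.53 with Thoc2 and 0.34 with Thoc5 at passage 3. At passage 3 the median of all detected genes with Thoc5 was 0.28, and TMM scaling brought that median to 0.04 and Pdgfra to 0.09.

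Cd34 stood at −1.20 with Thoc2 and −0.04 with Thoc5 at passage 10, and at −0.67 with Thoc2 and −0.44 with Thoc5 at passage 3. Clec3b was at −1.17 with Thoc2 (14 reads) and −0.92 with Thoc5 (19 reads) at passage 3. Dpt was at −0.21 with Thoc2 and 0.00 with Thoc5 at passage 3, where the sign turned with the scaling (0.06 with Thoc2 without ribosomal RNA, −0.24 with Thoc5 under TMM), and had only 7 and 2 reads at passage 10. Pi16 was at −0.37 with Thoc2 and 0.49 with Thoc5 at passage 10, on 26 and 31 reads. At passage 3 it was at 0.77 with Thoc2 (27 reads) and −0.81 with Thoc5 (8 reads). A log2 ratio of −1 or lower was reached by 1 member with Thoc2 and 0 with Thoc5 at passage 10 (6.77% and 3.48% of detected genes), and by 3 with Thoc2 and 0 with Thoc5 at passage 3 (18.6% and 9.22%).

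**Figure D5:**
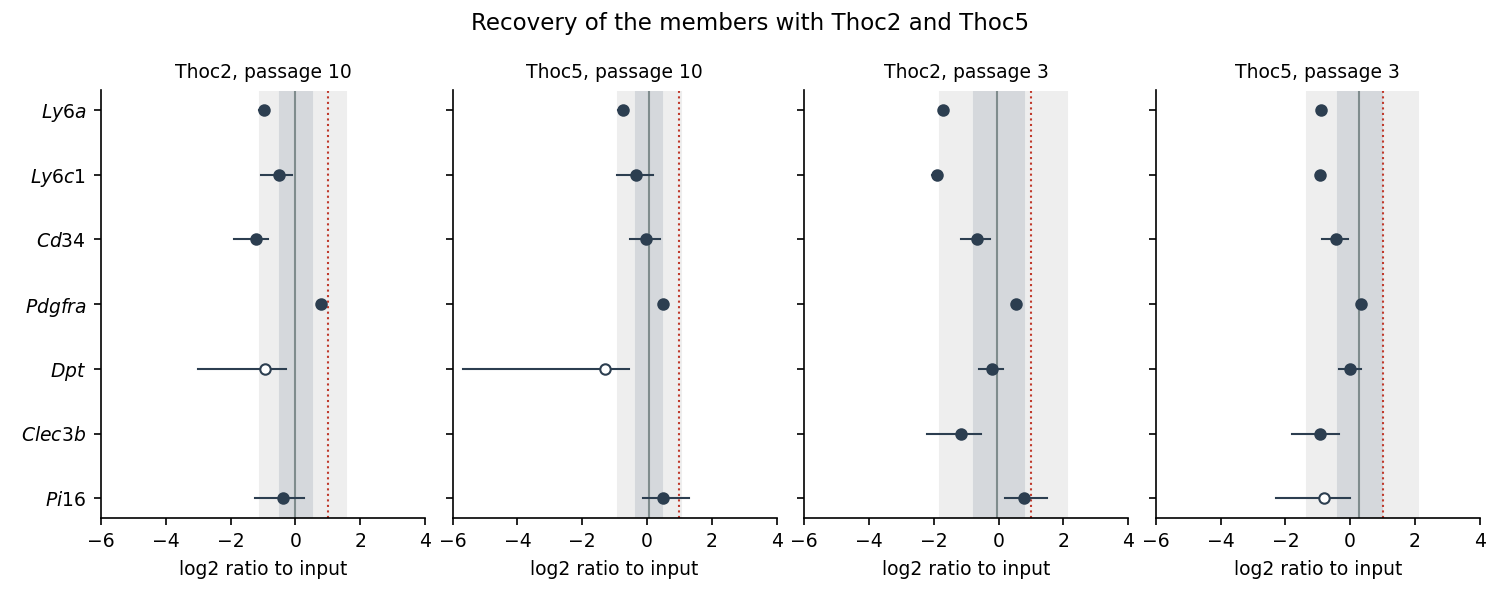
log2 ratio of each immunoprecipitate to its input with 95% counting intervals of the ratio without added CPM; open dots have fewer than 10 reads or 1 CPM. Grey bands hold the middle 50% and 90% of detected genes, the grey line is their median and the dotted line the limit of 1; Ly6a lies left and Pdgfra right of the median in all 4.

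Transcript length went along with these ratios over all genes, a description made after the values were seen. Ly6a (828 bases) and Ly6c1 (844 bases) are short, Cd34 has 2621 bases and Pdgfra 6737. Genes under 1000 bases had median log2 ratios of −0.88 with Thoc2 and −0.69 with Thoc5 at passage 10, and −1.41 with Thoc2 and −0.76 with Thoc5 at passage 3. Genes of 5000 bases or more had medians of 0.79 (Thoc2) and 0.54 (Thoc5) at passage 10, and of 0.99 (Thoc2) and 0.81 (Thoc5) at passage 3. Ly6a thus lay below the median of the short genes in each library, and Pdgfra below the median of the long genes in each. Ly6c1 was above the median of the short genes with both antibodies at passage 10 and below it with both at passage 3. The part of length in the members' ratios was not tested.

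Of the other adventitial and fibroblast genes, 1 was enriched in each immunoprecipitate. At passage 10 this was 1 of 26 detected with Thoc2 and of 27 with Thoc5 (12.6% and 6.12% of all detected genes). At passage 3 it was 1 of 26 with Thoc2 and of 28 with Thoc5 (19.8% and 24.6%). At passage 10 the gene was Gli1 with both antibodies (2.20 with Thoc2 and 1.52 with Thoc5). At passage 3 it was Lama2 with Thoc2 (1.39) and Scara5 with Thoc5 (1.30). Gli1 had only 0.788 CPM in its input. Scara5 had 1.82 CPM in the passage 3 input and 0.185 CPM with Thoc2. In the PDGF list all 7 genes were detected, and 0 were enriched with either antibody at passage 10. At passage 3, 1 of 7 was enriched with Thoc2 and 2 of 7 with Thoc5. Pdgfd reached the limit with both antibodies (1.08 for Thoc2 and 1.40 for Thoc5), and Pdgfrb with Thoc5 alone (1.12).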

How the data were processed

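RNA-seq was available for 4 libraries and RIP-seq for 6. Per the submitters' processing notes, the mm9 build was used, with featureCounts, Subread, limma and bcl2fastq among the tools, and the step each served is not stated. The authors deposited raw read counts per gene. They also deposited, per the file headers, a table of log2 fold changes with p-values and gene lengths, a ratio of immunoprecipitate to input, and a score per selected gene. The deposited ratio was not used for comparison, since at passage 3 it lies near the quotient of raw reads without scaling for depth. Genes below 11 reads in input plus immunoprecipitate are unlisted in the RIP-seq tables, and an unlisted gene thus had at most 10. The 40 further columns of per-sample values were not used.

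Counts were compared with edgeR 4.0.16 (R 4.3.3; TMM, filterByExpr, quasi-likelihood test, Benjamini-Hochberg adjustment over all tested genes, threshold 0.05), with DESeq2 1.42.0 and limma-voom (limma 3.58.1) as alternatives. An exact two-sided permutation test of 2 against 2 has a smallest p of 0.333. CPM are reads over the library total. Log2 ratios of RIP-seq libraries add 0.5 CPM to both sides, which understates the change of low genes, and carry no test. The edgeR fit and the RIP-seq ratio were each tested on simulated counts with known changes. The simulated counts held no effect of the replicate number and no trend with length, so they do not cover those features of the data. Replicate numbers are not said to pair the libraries, so the reported fit has no block, and a fit with one is among the alternatives.

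The members, the lists and the tests were chosen with earlier results of these data known. Of each list, up to 5 tested genes with the largest absolute log2 fold change and up to 3 with the highest ratio per immunoprecipitate could be named. Symbols and promoters come from RefSeq tables for GRCm38.p6, and no coordinates were moved between builds. Some genes within that rule are named, and 1 that it picks is not reported here.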

Additional observations from a re-analysis of the deposited data

Results flagged for a closer look

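The ratio to input pointed one way at passage 10 and the other way at passage 3 for 2 genes, with 1 library each, so the difference between passages was not tested. Pi16 with Thoc2 stood at −0.37 at passage 10 and 0.77 at passage 3 on the log2 scale. Pi16 with Thoc5 stood at 0.49 at passage 10 and −0.81 at passage 3, the last on 8 reads. Both of its intervals include 1 (0.912 to 2.44 at passage 10 and 0.206 to 1.01 at passage 3). Dpt with Thoc5 stood at −1.30 at passage 10, on 2 reads, and 0.00367 at passage 3, a value that was −0.24 under TMM scaling. Its interval at passage 3 was 0.796 to 1.25, which includes 1. Leaving aside the reads under 10, Pi16 with Thoc2 is the case with the most reads, 26 at passage 10 and 27 at passage 3. Even there, the direction at passage 10 lay within counting error.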

How the results depend on the processing

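With 2 libraries a group, the count of genes called was 0 in edgeR, 48 in DESeq2, 1 without the filter on low counts and 511 with the replicate number as a block; leaving out single libraries gave 0 to 47. The block thus called 511 of 13569 tested genes, and 1 of the 5 tested members, Cd34 (log2 fold change −0.71, edgeR adjusted p = 0.0164). Deviations of same-numbered libraries correlated at 0.635 and the first principal component (61.3% of variance) separated the numbers, but the labels give no pairing and there are only 2 pairs. Leaving out single libraries called 0 members. It moved the members' median between −1.01 and −0.13, that of Ly6a between −1.01 and 0.28 and that of Ly6c1 between −0.23 and 0.55, so both changed direction; without shNT replicate 1 Ly6a stood at 0.21, and without shThoc5 replicate 2 Ly6c1 stood at −0.13. The cause was not tested. With totals that leave out ribosomal RNA, 1 member (Pi16) was enriched with Thoc2 at passage 3, where 26.1% of detected genes were under that setting, and the median of all detected genes there was 0.23, against −0.04. Counts of members enriched were otherwise 0. Under the alternatives, 8 member ratios to input moved and 96 did not, and 7 passage ratios moved and 21 did not, and the sign turned only for Dpt at passage 3, to 0.06 with Thoc2 when ribosomal RNA was left out of the totals and to −0.24 with Thoc5 under TMM scaling. Dpt, Clec3b and Pi16 rest on at most 30 reads in each RNA-seq library, which limits what could be seen.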
